A study of Eohaustorius estuarius with 16 samples.

Results

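The 16 contigs described here are weakly expressed transcripts that were lower in cyfluthrin-exposed amphipods than in controls. They were chosen from the 8507 contigs on the array by the difference between the groups in the authors' value table, after cyfluthrin replicates 5 and 6 had been averaged. A contig had to be well above background, the scanner software's flag for a spot clearly brighter than its surroundings, on at least 8 of the 16 arrays. It had to lie at least 1 log2 unit lower in cyfluthrin samples, with every cyfluthrin sample below the control median and every control above the cyfluthrin median. Its control mean also had to lie below the median signal of the array. The background filter kept 6852 contigs, of which 2600 lay below the array median in controls, and 16 of those met the whole rule. The difference between the groups therefore chose these contigs, and its size is given as a description without a test.

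The 8 cyfluthrin samples and the 8 controls are whole bodies of Eohaustorius estuarius, all with labF in their titles, 1 array for each sample. Cyfluthrin animals were kept for 10 days in sediment dosed with the pyrethroid at a nominal 1.6 µg/kg, and control animals for as long in sediment that received the solvent alone. Whether a sample is 1 animal, a pool or 1 of several from a container is not given in the labels, so p-values measure the spread between these samples, which may be partly technical. No age or sex is given in the labels used here.

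Eohaustorius estuarius is a small crustacean that burrows in estuarine sand and serves as a test species for contaminated sediment. Cyfluthrin, like other pyrethroids, slows the closing of voltage-gated sodium channels, so that nerves fire repeatedly. A whole-body extract mixes RNA of nerve, muscle, gut, gonad, cuticle and blood. A transcript can therefore be dim because each cell holds little of it or because few cells express it, and fewer cells of a type cannot be told apart from less RNA per cell. The files used here pair no contig with a gene name or a sequence, so the contigs are given by number, their roles are not stated, and the tissue was not checked against marker genes.

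Weak signal sets the frame for all values below. The median signal of negative-control spots, which match no transcript, was 1.45 to 2.03 scanner units on cyfluthrin arrays and 1.40 to 2.36 on control arrays. The lowest contig signal flagged as well above background was 5.84 to 8.16 units on cyfluthrin arrays and 5.63 to 9.30 on control arrays. The 75th percentile of all contig spots ran from 169 to 281 units in cyfluthrin samples and from 71.1 to 194 in controls, so overall brightness differed between the groups. Arrays of cyfluthrin replicates 5 and 6 differed by 0.896 times the squared error that the software estimates, against 3.36 times for the next closest pair, and were counted as 1 sample, leaving 7 cyfluthrin samples.

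Before any scaling between arrays, the median over the 16 contigs was lower on every cyfluthrin array than on any control array. Their median signal was 6.76 to 13.3 units on the 8 cyfluthrin arrays, with a median of 9.17, against 13.5 to 29.1 units and a median of 16.3 on the 8 control arrays. The groups did not overlap in this summary, although cyfluthrin replicate 2 and control replicate 7 nearly met. All 16 contigs had a lower mean unscaled signal in cyfluthrin samples, with changes of -1.86 to -0.58 on the log2 scale and a median of -0.79. The values of single arrays did not overlap between the groups in 1 of them, contig_357. The share of all contigs without overlap in unscaled signal is not given here, so nothing is read from that count. The contigs as a whole went the other way, with a median unscaled change of 0.54 over all 6852 tested contigs and 0.40 over the 2600 dim ones. Of those dim contigs, 20.4% were lower in cyfluthrin samples without scaling. The 16 contigs were chosen for lower values on these same arrays, so their lower unscaled signal is no separate result.

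The number of the 16 contigs well above background was 9 to 13 on cyfluthrin arrays, with a median of 11. It was 12 to 16 on control arrays, with a median of 16. Over all contigs the share well above background was 77.6% to 83.2% on cyfluthrin arrays and 67.6% to 89.4% on control arrays. Control replicates 1, 7 and 8 fell short of the full set, with 13, 15 and 12 contigs. Control replicates 7 and 8 were also the arrays with the lowest share of all contigs well above background, 67.6% each. Of the 16 contigs, 4 were well above background on all 16 arrays, 10 on all 8 control arrays, and 6 on no more than 4 cyfluthrin arrays. The flag is part of the filter that chose these contigs, and the 8 control arrays alone could meet it. These counts are therefore a description and no separate result.

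**Figure D1:**
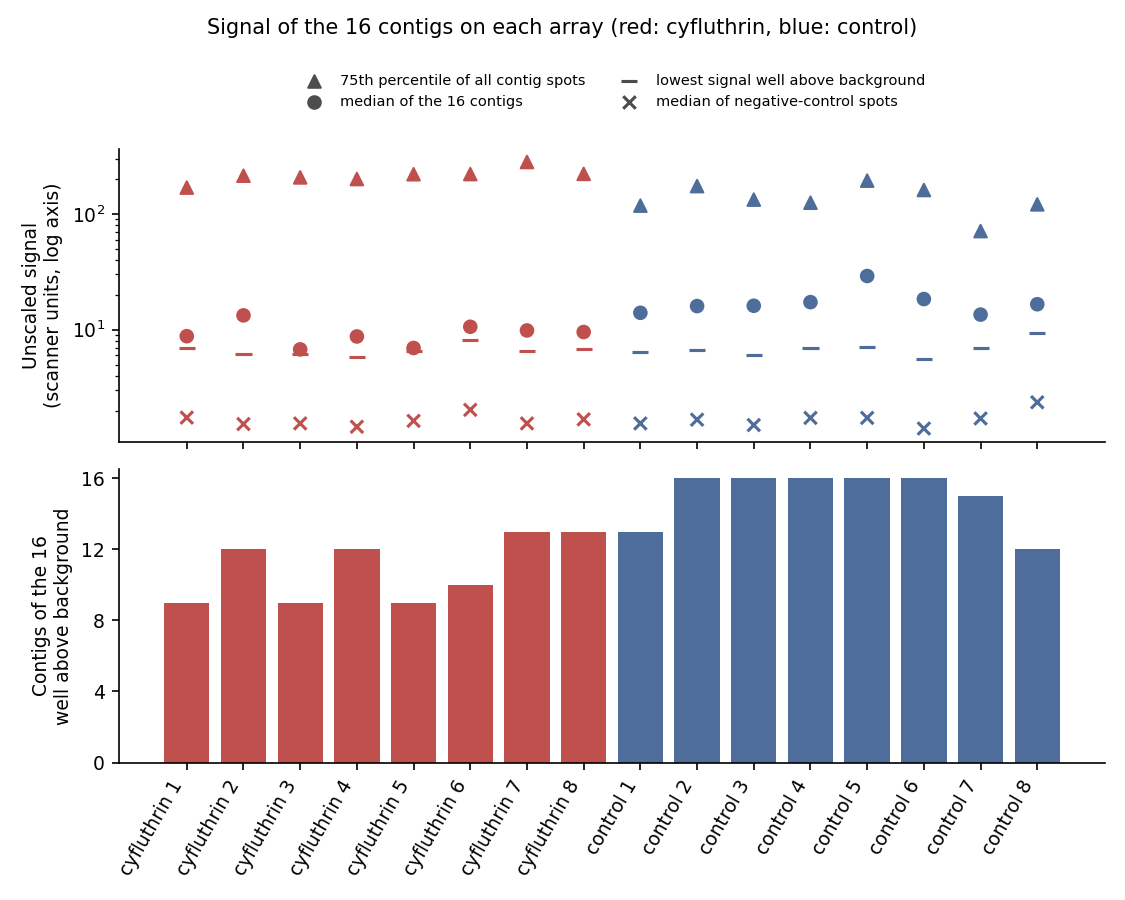
Signal of the 16 contigs on each array. The upper panel plots, per array and in scanner units on a log axis, the 75th percentile of all contig spots (triangles), the median of the 16 contigs (circles), the lowest signal well above background (dashes) and the median of negative-control spots (crosses), and the lower panel the number of the 16 contigs well above background. Cyfluthrin arrays are on the left in red and control arrays on the right in blue. The circles of the cyfluthrin arrays lie at 6.76 to 13.3 and those of the controls at 13.5 to 29.1, while the triangles lie higher on most cyfluthrin arrays.

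Levels below are log2 signals minus the log2 75th percentile of the same array, averaged over the spots of a contig, so that more negative means dimmer. On this scale the change of the 16 contigs, cyfluthrin minus control, ran from -2.56 to -1.28 with a median of -1.49. The scale itself moved all contigs, with a median change of -0.16 over the tested contigs and -0.30 over the dim ones. In the authors' value table, whose values match a quantile normalization that gives every array the same distribution, the changes ran from -2.20 to -1.01 with a median of -1.14, against -0.02 over all tested contigs and 0.01 over the dim ones. Levels of different contigs are not set against each other, since probes differ in how strongly they bind.

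Fitted over all 6852 tested contigs with limma, 16 of the 16 were called lower at an adjusted p below 0.05, where 22.5% of all tested contigs were called lower. The rule used the same contrast, so nothing follows from that count. Cyfluthrin samples all lay below all controls in 9 of the 16 contigs, against 4.77% of all tested contigs. With the authors' values limma called 15 of the 16, contig_7391 being the exception, against 12.2% of all contigs, and 6 of the 16 did not overlap, against 2.54%. The rule asked for a fall and for samples on their side of the other group's median. Higher shares among the 16 were therefore built in, and nothing follows from these counts either.

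**Figure D2:**
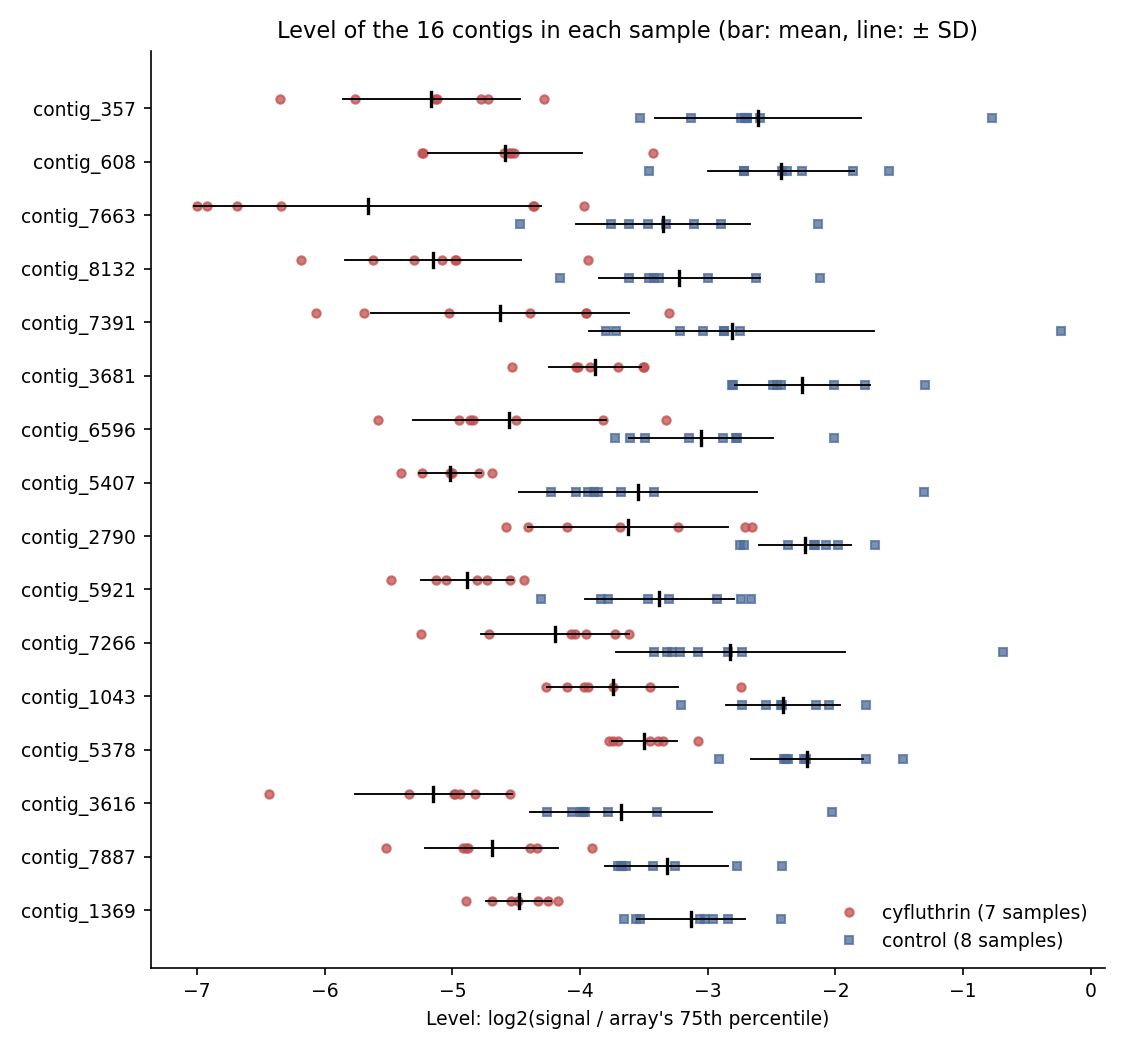
Levels of the 16 contigs in each sample, in log2 units relative to the array's 75th percentile, with contigs ordered by their change in the authors' value table. Red circles are the 7 cyfluthrin samples and blue squares the 8 controls, with the mean as a bar and ± SD as a line. Lone control points lie far to the right in contig_357, contig_7391, contig_5407, contig_7266 and contig_3616.

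Measured on every array were contig_3681, contig_2790, contig_1043 and contig_5378, whose control levels lie closest below the array median. The level of contig_3681 had a lowest, median and highest value of -4.53, -3.92 and -3.50 in cyfluthrin samples, against -2.81, -2.44 and -1.30 in controls. The groups did not overlap. Its means were -3.89 ± 0.36 (SD, n = 7) in cyfluthrin samples and -2.26 ± 0.53 (SD, n = 8) in controls, a change of -1.63 ± 0.23 (SE), or 3.09-fold lower. In unscaled signal it lay between 9.62 and 18.9 units on cyfluthrin arrays and between 17.2 and 36.7 on control arrays.

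The level of contig_5378 was -3.77, -3.45 and -3.08 (lowest, median, highest) in cyfluthrin samples and -2.91, -2.31 and -1.47 in controls. It too separated the groups, by a gap of 0.17 log2 units between cyfluthrin replicate 4 and control replicate 1. The change was -1.28 ± 0.19 (SE), or 2.43-fold lower, from means of -3.50 ± 0.25 (SD, n = 7) with cyfluthrin and -2.22 ± 0.44 (SD, n = 8) in controls. In the other 2 contigs of this kind the groups overlapped. For contig_1043 the level was -4.27, -3.94 and -2.74 in cyfluthrin samples and -3.21, -2.42 and -1.76 in controls, and cyfluthrin replicate 2 lay above control replicate 2. For contig_2790 it was -4.58, -3.69 and -2.65 in cyfluthrin samples and -2.75, -2.16 and -1.69 in controls, with cyfluthrin replicates 2 and 8 inside the control range. Their changes were -1.33 ± 0.24 (SE) and -1.39 ± 0.29 (SE).

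By the rule's own values contig_357 differed most among the 16. Its level was -6.35, -5.12 and -4.28 in cyfluthrin samples, against -3.53, -2.70 and -0.77 in controls, without overlap. The change was -2.56 ± 0.37 (SE) in measured values and -2.20 in the authors' value table. Unscaled, it read 2.62 to 10.3 units on cyfluthrin arrays and 10.9 to 41.7 on control arrays. The flag for a signal well above background was set on 4 cyfluthrin arrays and on all 8 control arrays, so the controls alone carried it past the filter and no fold is given for it. Control replicate 7, at -0.77, was the highest control, followed by -2.59 in control replicate 8, and without replicate 7 the authors' values gave a change of -1.93.

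The level of contig_608 was -5.24, -4.56 and -3.43 in cyfluthrin samples and -3.46, -2.40 and -1.58 in controls. Cyfluthrin replicate 2 lay just inside the control range, while the other cyfluthrin samples lay at -4.52 or below. The change was -2.16 ± 0.29 (SE), or 4.48-fold lower. The contig missed the flag for well above background on 1 array, that of cyfluthrin replicate 3. Both of its spots in cyfluthrin replicate 2 were bright, at 17.3 and 22.9 units.

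The level of contig_8132 was -6.19, -5.08 and -3.94 in cyfluthrin samples and -4.16, -3.40 and -2.12 in controls. Cyfluthrin replicate 8 lay inside the control range, and the other 6 cyfluthrin samples below it. Well above background were 2 cyfluthrin arrays, those of replicates 7 and 8, and all 8 control arrays, and the change was -1.93 ± 0.32 (SE). The 1 spot of this contig had a software error of 31.4% of its signal on the median cyfluthrin array and 15.8% on the median control array.

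In contig_7663, which has 1 spot, the 2 arrays that otherwise looked like the same RNA disagreed. Its unscaled signal was 35.1 units in cyfluthrin replicate 6 and 3.28 in cyfluthrin replicate 5, a gap of 3.41 log2 units after scaling. Over the 16 contigs the median gap of this pair was 0.46 and the next largest 1.23, and of the 2600 dim contigs 1 had a gap as large, which is contig_7663 itself. The other cyfluthrin arrays read 8.18 units in replicate 1, 13.6 in replicate 2 and between 1.57 and 2.73 in replicates 3, 4, 7 and 8. Control arrays read 5.36 to 28.5 units. With the pair averaged, its level was -7.00, -6.34 and -3.97 in cyfluthrin samples and -4.47, -3.40 and -2.14 in controls, a change of -2.32 ± 0.50 (SE). Cyfluthrin replicates 1 and 2 and the averaged pair lay inside the control range. With the 2 arrays kept apart, this contig no longer met the rule.

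In contig_7391 control replicate 7 stood out among the controls. Its level was -6.07, -4.39 and -3.30 in cyfluthrin samples and -3.80, -2.96 and -0.23 in controls, a change of -1.81 ± 0.51 (SE). Both spots on the array of control replicate 7 were bright, at 60.5 and 60.4 units. On the array of cyfluthrin replicate 2, the highest of its group, the 2 spots disagreed, at 8.46 and 55.6 units. In the authors' value table the change was -1.49 with all arrays and -1.11 without control replicate 7.

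Control replicate 5 stood alone in 2 contigs. The unscaled signal of contig_7266 was 5.43 to 17.4 units on cyfluthrin arrays, against 119.9 units in control replicate 5 and 10.7 to 17.5 on the other control arrays. That of contig_5407 was 4.91 to 8.58 units on cyfluthrin arrays, against 77.9 units in control replicate 5, from spots of 92.1 and 65.9, and 5.54 to 12.4 on the other control arrays. Unscaled, the cyfluthrin arrays and the other controls thus overlapped in both contigs. After scaling, cyfluthrin levels were -5.25 to -3.62 in contig_7266 and -5.40 to -4.69 in contig_5407, against -3.42 to -0.69 and -4.23 to -1.31 in controls, without overlap. The changes were -1.38 ± 0.37 (SE) and -1.48 ± 0.34 (SE), and in the authors' value table -1.10 and -1.15. Without control replicate 5 these fell short of the limit, at -0.80 and -0.84.

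The level of contig_3616 was -6.44, -4.98 and -4.55 in cyfluthrin samples and -4.26, -3.97 and -2.03 in controls. Cyfluthrin replicate 2 stood below the other cyfluthrin samples, with spots of 3.74 and 1.62 units, and control replicate 7 above the other controls, with 23.0 and 13.1. The change was -1.47 ± 0.33 (SE), with the contig well above background on 3 cyfluthrin and 7 control arrays.

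Among the remaining 4 contigs, contig_1369, contig_7887 and contig_5921 separated the groups on this scale. The level of contig_1369 was -4.89, -4.49 and -4.17 in cyfluthrin samples and -3.66, -3.04 and -2.43 in controls, a change of -1.35 ± 0.19 (SE), with the contig well above background on 4 cyfluthrin arrays and all 8 control arrays. The level of contig_7887 was -5.52, -4.88 and -3.91 in cyfluthrin samples and -3.70, -3.53 and -2.42 in controls. The level of contig_5921 was -5.48, -4.81 and -4.44 in cyfluthrin samples and -4.31, -3.38 and -2.66 in controls. The exception, contig_6596, overlapped, at -5.58, -4.84 and -3.33 in cyfluthrin samples and -3.73, -3.01 and -2.01 in controls. Its highest cyfluthrin sample, replicate 1, exceeded 3 controls.

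Single arrays decided for many of the contigs whether the limit of -1 was met. With each array left out in turn, 7 of the 16 contigs stayed at -1 or lower in the authors' value table whichever array was left out, and 9 did not. The 7 were contig_357, contig_608, contig_7663, contig_8132, contig_7391, contig_3681 and contig_5921. Of these, contig_7663 failed the whole rule in 9 of the 16 runs, and the other 6 met it in every run. With all arrays, contig_7663 was well above background on exactly 8, so leaving out any of those 8 took it below the filter. In the remaining run, that without cyfluthrin replicate 5, its samples were no longer separated as the rule asks. Leaving out control replicate 7 took 5 contigs above the limit, contig_1043, contig_5378, contig_3616, contig_7887 and contig_1369, and any other array between 0 and 3. On the 75th-percentile scale control replicate 7 was the highest control in 10 of the 16 contigs, and without scaling control replicate 5 was the highest in 9. Control replicate 7 had the lowest 75th percentile of all arrays, 71.1 units, and control replicate 5 the highest share of contigs well above background, 89.4%. The part of these array-wide differences in the change of the 16 contigs was not tested.

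**Figure D3:**
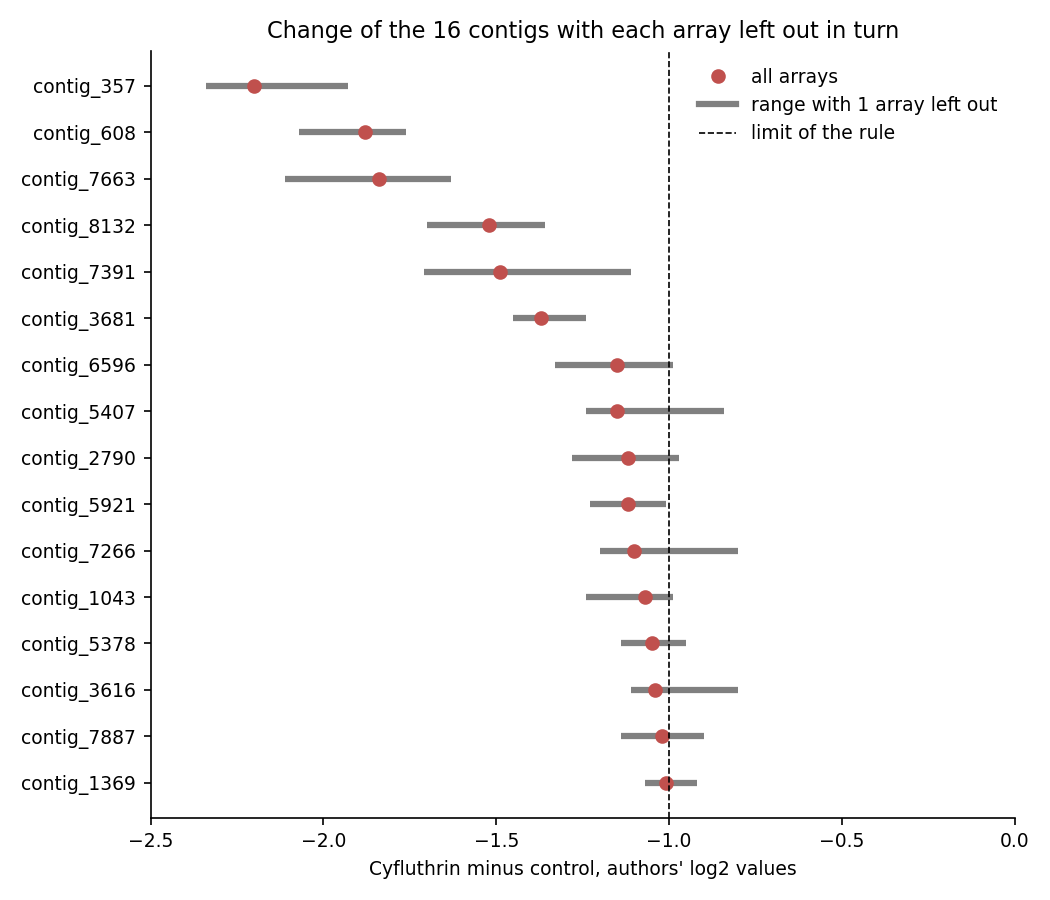
Change of the 16 contigs with each array left out in turn. The x axis gives cyfluthrin minus control in the authors' log2 values, red points use all arrays, grey bars span the values with 1 array left out, and the dashed line marks the limit of -1. The bars of 9 contigs cross the line, and those of contig_3616 and contig_7266 reach -0.80.

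Just inside the limit on the change were contig_1369 at -1.009, contig_7887 at -1.021 and contig_3616 at -1.037 in the authors' value table. Just outside it, with every other criterion met, were contig_2978 at -0.998, contig_4461 at -0.993 and contig_6780 at -0.991. Just inside the limit on the control level, as log2 over the array median, were contig_5378 at -0.147, contig_2790 at -0.163 and contig_3681 at -0.187. Just outside it were contig_1872 at 0.008, contig_1499 at 0.164 and contig_1375 at 0.322, with changes of -1.891, -1.050 and -1.192.

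By the authors' values, the criteria other than that on the control level were met by 16 of the 2600 dim contigs, or 0.615%, and by 103 of the 4252 contigs at or above the array median, or 2.42%. Among dim contigs 27 were lower by at least 1 log2 unit and 184 higher, and 11 of the 27 did not separate the samples as the rule asks. A change of -1 or lower was found in 2.52% of all tested contigs. These shares come from the contrast that chose the 16 contigs and were not tested.

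**Figure D4:**
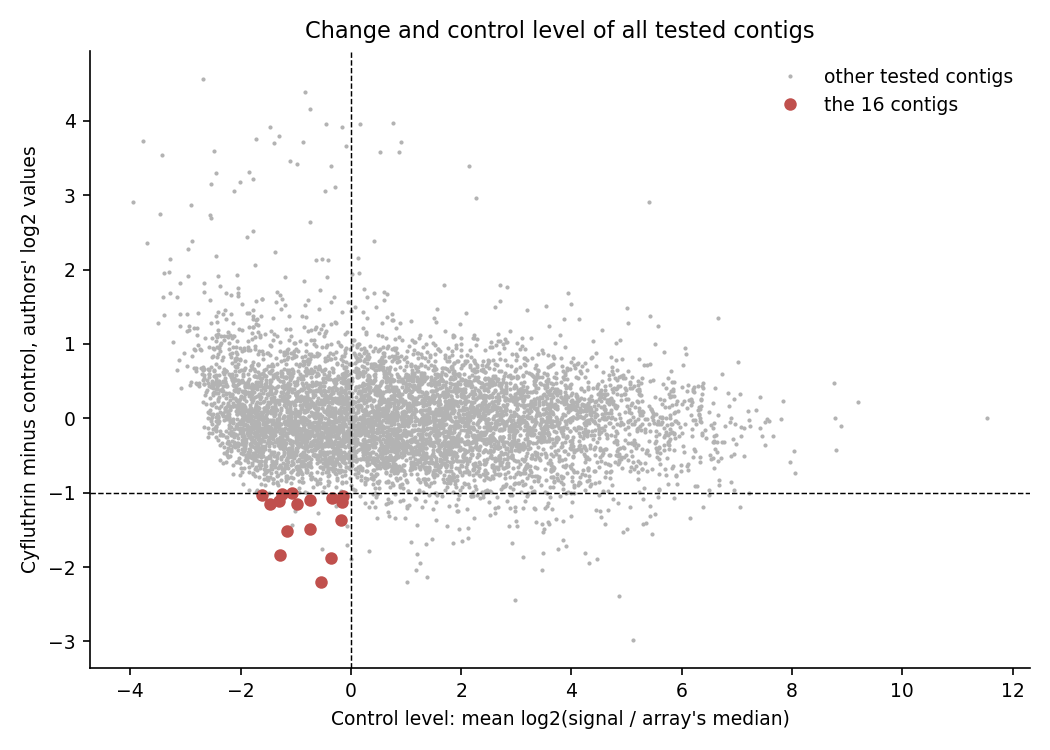
Change and control level of all tested contigs. The x axis gives the control mean of log2 signal over the array's median and the y axis cyfluthrin minus control in the authors' log2 values, with each grey point a tested contig and the 16 contigs in red. Dashed lines mark the limits of 0 and -1, and the 16 contigs lie in the lower left, where other contigs are sparse.

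How many contigs met the rule depended on the scaling between arrays. With the 75th percentile 117 contigs met it, with the negative-control signal subtracted first 122, and with median scaling 41, each set holding all 16. Quantile normalization of the scanner signal gave 15 of the 16 and no other contig, contig_7663 being left out. Scaling to the E1A probes, which detect transcripts added to each RNA before labelling, gave 7, of which 6 were among the 16 and contig_6416 was not. Normexp background correction with an offset of 50, which draws dim values together, gave 3 others, contig_4101, contig_6416 and contig_710, which were named after their values were seen.

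**Figure D5:**
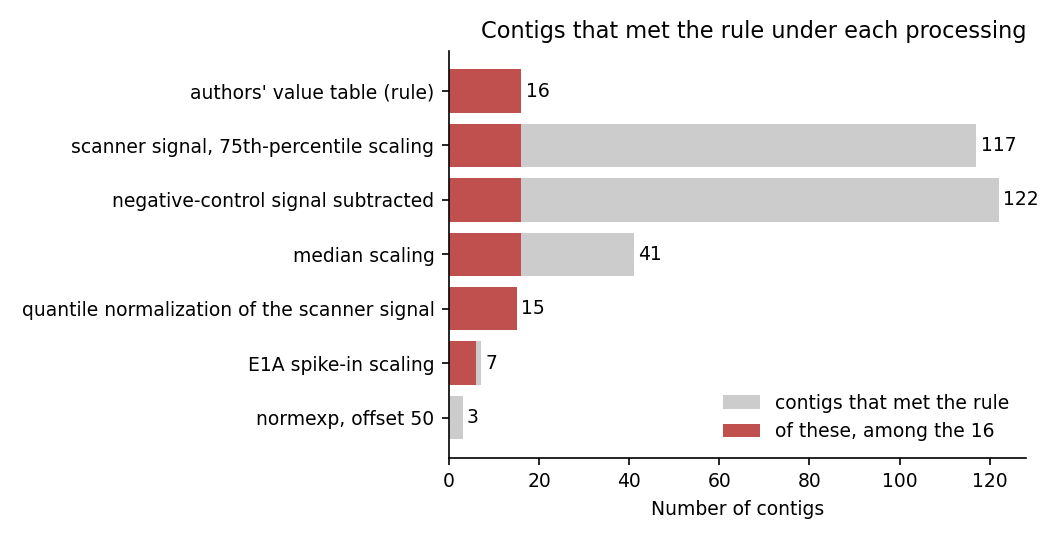
Contigs that met the rule under each processing. Bars give the number of contigs, with the share among the 16 in red. The number ran from 3 with normexp to 122 after subtraction of the negative-control signal, and all 16 were retained with 75th-percentile scaling, median scaling and the subtraction.

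The floor of the measurement was compared between the groups by 3 measures. The rule used no difference between the groups in any of them, although its filter used the flag for a signal well above background, which depends on the local background and defines the lowest such signal. Unscaled, log2 of the negative-control signal was 0.69 ± 0.12 (SD, n = 7) in cyfluthrin samples and 0.75 ± 0.23 (SD, n = 8) in controls, a difference of -0.06, smaller than either SD (exact permutation over all 6435 splits of 7 against 8, two-sided, p = 0.57 before and after adjustment over 3 measures). Relative to the array's 75th percentile it was -7.05 ± 0.27 (SD, n = 7) in cyfluthrin samples and -6.29 ± 0.53 (SD, n = 8) in controls, a difference of -0.76 log2 units (exact permutation p = 0.00218, adjusted p = 0.0028). The lowest signal well above background differed by -0.76 on that scale (exact permutation p = 0.00186, adjusted p = 0.0028). The local background around the spots differed by -0.65 on it (exact permutation p = 0.0028, adjusted p = 0.0028). Unscaled, the lowest signal well above background differed by -0.06 (exact permutation p = 0.547, adjusted p = 0.57). The unscaled local background differed by 0.05 (exact permutation p = 0.259, adjusted p = 0.57). All 3 scaled measures are set against the same 75th percentile of each array. Their differences are therefore not 3 separate results, and without that scaling no measure had an adjusted p below 0.05. The part of the floors in the changes of the 16 contigs was not tested.

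Each of the 2 slides carried 4 cyfluthrin and 4 control arrays. The rule asked every sample of a group to lie on its side of the other group's median, so a lower mean on both slides was nearly fixed by the choice of contigs and is no replication. The median change of the 16 was -1.76 on slide 1 and -1.46 on slide 2, where replicate 5 counts on slide 1 and replicate 6 on slide 2. The values ran from -3.21 to -1.14 on slide 1 and from -2.19 to -0.69 on slide 2.

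Whether the change differed between the slides was tested over all contigs with an interaction term in limma, a measure that the rule averaged over. The change was more negative on slide 1 in 13 of the 16, and the median interaction, slide 2 minus slide 1, was 0.49 over the 16 contigs and 0.06 over all tested contigs. The widest differences were in contig_3616, with changes of -2.19 on slide 1 and -0.69 on slide 2, in contig_357, with -3.21 and -1.90, and in contig_7887, with -1.78 and -0.88. With replicate 5 standing for the averaged pair, limma's interaction was 1.42 ± 0.58 (SE) for contig_3616, with an unadjusted p of 0.0288 and an adjusted p of 0.993. At an adjusted p below 0.05 the count was 0 of the 16 and 0 of all contigs (0%). At an unadjusted p below 0.05 it was 1 of the 16 against 4.09% of all contigs, and 2 of the 16 against 3.23% with replicate 6 standing for the pair. The standard error of the interaction over the 16 contigs was 0.31 to 1.11 log2 units with replicate 5 standing for the pair. With replicate 6 it was 0.30 to 1.27, the highest being that of contig_7663. This is the precision that these arrays give.

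The slide itself, tested with the treatment as a term, gave a median of -0.31 log2 units (slide 2 minus slide 1) over the 16 contigs, 12 of them lower on slide 2, against -0.06 over all tested contigs. None of the 16 passed in limma, with a smallest adjusted p of 0.683, and 2 had an unadjusted p below 0.05, against 7.21% of all contigs. With replicate 6 standing for the pair 3 had one, against 6.06% of all contigs. Over all contigs 1 passed (0.0146%), contig_42, named after its value was seen and saturated on 8 of the 16 arrays.

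Position on the slide was not balanced: column 3 held 4 cyfluthrin arrays and no control array. The values that follow come from the contrast and the arrays that chose the 16 contigs, so nothing is read from them, and for column 3 position and cyfluthrin cannot be told apart. Without those arrays, 3 cyfluthrin samples and 8 controls gave a median change of -1.49, and limma called 9 of the 16 lower, against 4.01% of all contigs. With the column as a covariate 14 of the 16 were called with replicate 5 standing for the pair and 11 with replicate 6, against 12.7% and 7.75% of all contigs.

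Correlations between the 16 contigs within the groups covered a wide range, with medians above those over all dim contigs. Over the 120 pairs of contigs, Pearson's correlation of levels across the 7 cyfluthrin samples ran from -0.77 to 0.87 with a median of 0.14, and across the 8 controls from -0.71 to 0.91 with a median of 0.34. The medians over pairs of all dim contigs were 0.01 in cyfluthrin samples and 0.09 in controls. In the authors' value table the medians for the 16 were 0.12 in cyfluthrin samples and 0.21 in controls, and those over pairs of all dim contigs 0.04 and 0.03. All these values share the arrays and their scaling, and the pairs are not independent. The 16 contigs were also chosen by their values in these samples, and control replicate 7 was the highest control in 10 of them after scaling. Nothing is therefore read from the higher medians. Taking deviations from the group means over all 15 samples, contig_5378, contig_608 and contig_1043 had the highest median correlation with the rest, 0.35, 0.32 and 0.30. The lowest belonged to contig_6596, contig_2790 and contig_5407, at 0.11, 0.13 and 0.16.

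Spots of the same contig were compared on each array. Of the 16 contigs 11 had 2 spots, and the median gap between them over the arrays was 0.09 to 0.48 log2 units. Wide gaps on single arrays were found in contig_7391, with the spots of cyfluthrin replicate 2 given above, contig_3616, with 13.5 and 2.08 units in cyfluthrin replicate 5, and contig_5921, with 8.38 and 2.57 units in cyfluthrin replicate 3. The error that the software gives for a spot was 12.1% to 59.2% of the signal in cyfluthrin samples, with a median of 22.4%, and 11.3% to 21.1% in controls, with a median of 14.9%, where each contig enters by its median array. The highest, 59.2%, was that of contig_7663.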

How the data were processed

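Whole-body RNA of 8 cyfluthrin and 8 control samples was measured on 16 one-colour Agilent arrays. The deposited intensity values come from Agilent Feature Extraction, version 11.5.1.1 per the file headers and 9.1 per the submitters' processing notes, and are background-subtracted and detrended within each array, with no scaling between arrays. The flags used (well above background, outlier, saturated) are other columns of the same deposited files. The authors' deposited log2 values correlated at 0.997 to 1 with values recomputed here by quantile normalization centred on each probe's median. Their column medians lay between -0.11 and 0.12. That match is the basis for their scale and centring, and their direction is that of expression.

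Here, 536 control spots were left out, log2 signal was reduced by the array's 75th percentile over the other spots, outlier spots were dropped, and spots were averaged per contig. Well above background means that 50% or more of a contig's spots had the flag on that array. Groups were compared with limma 3.58.1 (R 4.3.3) and p-values adjusted by Benjamini-Hochberg over the 6852 contigs, and array-wide values with exact permutation tests. The fit was tested on simulated data. The number of arrays limits the precision. The contigs, lists and tests were chosen with earlier results of these data known. Contigs named are those with the largest falls overall and among those measured on all arrays, nearest the limits, seen on fewest cyfluthrin arrays, with the highest and lowest correlation, or with the widest difference between slides. The rule also asked for members with consecutive numbers, of which there were 0 pairs. The lists of gene names and cell type markers could not be matched.

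Alternatives were other scalings and background corrections, other filters and limits, the pair as 2 samples, blocks and covariates, and each array left out in turn. Same-numbered samples were not treated as pairs, except where the replicate number was a block. Correlations of their deviations from the group means ran from -0.67 to 0.47, which cannot exclude a pairing.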

Additional observations from a re-analysis of the deposited data

Results flagged for a closer look

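In 38 sets of values, 1 for each contig and group and 1 for each array-wide floor and group, 8 held a sample far from the rest. Chance would mark about 1 in 20 of sets chosen without regard to their values, a rate that does not apply to these contigs, which were chosen by their values in these samples. Cyfluthrin replicate 2 stood above the other cyfluthrin samples in contig_608, at -3.43 against -5.24 to -4.52. It stood below them in contig_3616, at -6.44 against -5.34 to -4.55. Control replicate 7 stood above the other controls in contig_357, at -0.77 against -3.53 to -2.59, in contig_7391, at -0.23 against -3.80 to -2.75, and in contig_3616, at -2.03 against -4.26 to -3.40. Control replicate 5 did so in contig_5407, at -1.31 against -4.23 to -3.42, and in contig_7266, at -0.69 against -3.42 to -2.73. The local background of control replicate 7 was -1.40 log2 units relative to the array's 75th percentile, against -2.90 to -2.19 in the other controls.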

How the results depend on the processing

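The number of contigs that met the rule was 117 with 75th-percentile scaling, 41 with median scaling, 7 with E1A scaling, 3 with normexp and 122 with the negative-control signal subtracted. It was 4 with the filter on all arrays, 29 with no filter, 39 and 6 with limits of -0.8 and -1.2, 50 with a control level below the 75th percentile, 27 without the separation of samples and, chosen after the data were seen, 40 without column 3 arrays. With 1 array left out it ran from 11, without control replicate 7, to 29, without cyfluthrin replicate 2, of which 10 and 14 were among the 16. With the pair as 2 samples it was 16, of which 14 were shared.

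Limma called 4 of the 4 that passed the filter on all arrays and 9 of 16 without column 3 arrays, and 16 whichever array was left out. With E1A scaling 12 were called. The median change of the 16 was -1.14 with quantile normalization and in the authors' value table, -1.02 with E1A scaling and -0.80 with normexp, and ran from -1.56 to -1.42 with 1 array left out. With the replicate number as a block, 16 were called with replicate 5 standing for the pair and 14 with replicate 6. Replicate numbers were not taken as pairs in the other fits. All these counts use the contrast that chose the 16 contigs, so nothing is read from them. Among these fits a share of all contigs is given only for that without column 3 arrays, 4.01%. For the 16 contigs and the 6 nearest the limits, 22 in all, no change turned its sign, and 22 of 516 alternative values of the 16 lost their call. Signs and calls were largely fixed by the choice of these contigs, so neither is read as stability. No matching share over all contigs is given. Unscaled, the difference was -0.06 for the negative-control signal, 0.05 for the local background and -0.06 for the lowest signal well above background. The slide test called 0 contigs with quantile normalization. Signal over background limits every cyfluthrin level near the floor.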

Other observations

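Of the 28 tested contigs that neighbour one of the 16 in number, 7 were called lower by limma (25.0%), against 22.5% of all tested contigs. The neighbour of contig_357, contig_356, chosen after its value was seen, is a bright contig at 5.12 log2 units above the array median in controls, and changed by -2.98 ± 0.50 (SE) with cyfluthrin. Contigs with 1 spot made up 31.2% of the 16, 24.5% of the dim tested contigs and 26.1% of all tested contigs.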
